A study of Mus musculus with 4 samples.

Results

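The nitric oxide and cGMP pathway is represented here by 10 of the 39179 genes in the deposited table, picked by gene symbol: the nitric oxide synthase genes Nos1, Nos2 and Nos3, the enzyme genes Gch1 and Arg1, the soluble guanylyl cyclase genes Gucy1a1, Gucy1b1 and Gucy1a2, the cGMP-dependent kinase gene Prkg1 and the cGMP phosphodiesterase gene Pde5a. The table lists Gucy1a1 and Gucy1b1 under their older symbols Gucy1a3 and Gucy1b3. All 10 were found, and 9 of them had the mean normalized read count of at least 10 that the test required, Nos1 being the exception. The list uses no cut on a measured value, but it was drawn up with results of this comparison known, so the values and tests of its members below are descriptive.

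RNA was sequenced from primary aortic smooth muscle cells of Sm-Yap/Taz-KO mice (KO, 2 libraries), in which the genes of the co-activators YAP and TAZ (Yap1 and Wwtr1) are deleted in smooth muscle, and of wild-type mice (WT, 2 libraries), both 18 days after tamoxifen injection. The labels used here do not name the driver of the deletion, the age of the mice or any pooling of animals. Nothing states that libraries of 1 group are separate animals or cultures. P-values therefore reflect the spread among these 4 samples alone, and that spread may be technical. The comparison asks which transcripts of this material differ when YAP and TAZ are deleted in smooth muscle.

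Nitric oxide is made from arginine by nitric oxide synthases, which need the cofactor tetrahydrobiopterin. In the vessel wall it diffuses from the endothelium into smooth muscle and binds soluble guanylyl cyclase, a dimer of an α and a β subunit that turns GTP into cGMP. The kinase encoded by Prkg1 then lowers calcium and relaxes the muscle, and phosphodiesterases end the signal by hydrolysing cGMP. The inducible synthase, encoded by Nos2, is made by macrophages and other cells after inflammatory stimulation.

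Of the 5 members that make, relay or hydrolyse cGMP, 3 fell in KO libraries, and the inducible synthase rose. The transcripts of both subunits of the major cyclase dimer, Gucy1a1 and Gucy1b1, fell, as did Prkg1, to 38.4%, 50.9% and 48.7% of the WT means, while the alternative α subunit Gucy1a2 stood at 93.9% and Pde5a at 58.9%, and neither passed the test. Smooth muscle markers were lower alongside, with a median of -1.004 on the log2 scale over 11. Nos2 and Arg1, an enzyme that competes for arginine, rose 76.7-fold and 17.6-fold in the ratio of means. Of the 9 tested members, 2 rose and 3 fell at a limma adjusted p under 0.05, against 9.58% of the 15058 tested genes that rose and 6.70% that fell. The groups did not overlap for 8 of the 9, beside 62.8% of all tested genes: KO was above WT for 4 (30.7% of all tested genes) and below WT for 4 (32.1%). The median log2 fold change was -0.09 over the 9 and -0.02 over all tested genes.

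**Figure D1:**
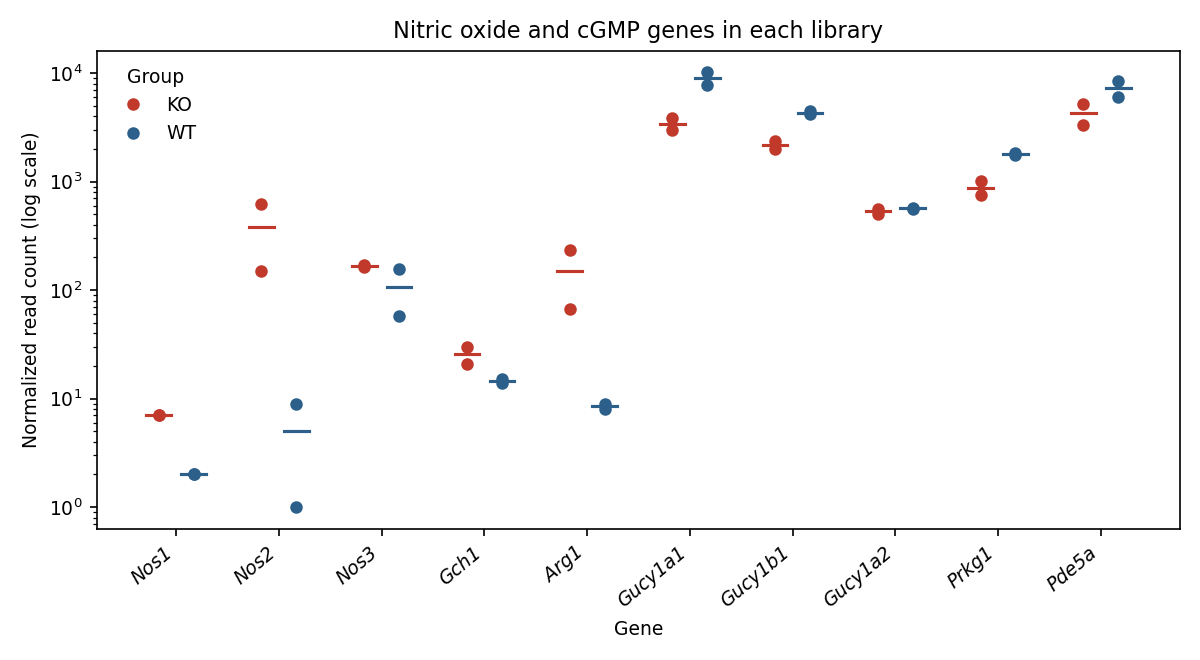
Normalized read count of the 10 genes in each library on a log scale, with KO in red to the left of WT in blue; each point is 1 library and each short line the mean of 2. The points of the groups are apart for every gene except Gucy1a2, and the KO points lie below the WT points for Gucy1a1, Gucy1b1, Prkg1 and Pde5a.

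The promoter windows of the cyclase genes and of Prkg1 are shown because Gucy1a1, Gucy1b1 and Prkg1 were lower in KO libraries and Gucy1a2 was close to equal. RefSeq windows on build GRCm38.p6 run from 250 bases before to 50 bases after a start site, and 9 windows of 7 members were found by symbol; Nos2, Nos3 and Arg1 had none in the table. Capitals mark a GC box (GGGCGG) or a CCAAT box (CCAAT), each on either strand.
Gucy1a1, chr3:82145601-82145900, minus strand: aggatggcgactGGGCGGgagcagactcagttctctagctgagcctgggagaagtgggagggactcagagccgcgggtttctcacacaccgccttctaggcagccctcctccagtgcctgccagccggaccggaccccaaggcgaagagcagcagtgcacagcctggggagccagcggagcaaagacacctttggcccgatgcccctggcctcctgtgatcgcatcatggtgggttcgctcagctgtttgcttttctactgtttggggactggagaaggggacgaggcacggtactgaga
Gucy1b1, chr3:82074662-82074961, minus strand: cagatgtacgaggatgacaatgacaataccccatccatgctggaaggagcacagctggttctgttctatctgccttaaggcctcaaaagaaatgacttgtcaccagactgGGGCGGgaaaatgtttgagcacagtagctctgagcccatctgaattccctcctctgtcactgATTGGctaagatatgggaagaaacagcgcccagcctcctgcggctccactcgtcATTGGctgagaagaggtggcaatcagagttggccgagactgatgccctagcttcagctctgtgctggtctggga
Prkg1, chr19:31764984-31765283, minus strand: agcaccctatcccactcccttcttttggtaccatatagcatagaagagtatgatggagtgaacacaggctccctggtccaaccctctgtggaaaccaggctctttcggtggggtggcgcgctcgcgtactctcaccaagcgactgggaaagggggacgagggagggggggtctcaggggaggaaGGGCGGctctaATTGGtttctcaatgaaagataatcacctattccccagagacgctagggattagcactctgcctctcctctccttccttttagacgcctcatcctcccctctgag
Gucy1a2, chr9:3532099-3532398, plus strand: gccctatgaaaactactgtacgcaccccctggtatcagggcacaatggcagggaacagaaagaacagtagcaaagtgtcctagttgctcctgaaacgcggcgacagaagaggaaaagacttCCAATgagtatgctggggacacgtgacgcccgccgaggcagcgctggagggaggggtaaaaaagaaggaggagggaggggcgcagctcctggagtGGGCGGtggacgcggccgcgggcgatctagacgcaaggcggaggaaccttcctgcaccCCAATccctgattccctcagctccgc
The table has a second window for Gucy1a1, which holds no GC box, and for Prkg1, which holds one. Each of the 4 windows shown holds a GC box, as do 7 of the 9 member windows and 35.7% of all 32851 windows in the table. A CCAAT box lies in 4 of the 9 member windows and in 37.4% of all windows. The TEAD motif MCAT (CATTCC), the AP-1 motif (TGANTCA) and the CArG box of serum response factor were in none of the 9 windows, on either strand. They occur in 14.7%, 7.81% and 1.63% of all windows. The end of each window, after its start site, was looked for in GENCODE transcripts. It was found for both Prkg1 windows and for the Gucy1a1 window not shown. It was not found for the Gucy1a1, Gucy1b1 and Gucy1a2 windows shown, so their start sites are uncertain. The Gucy1a2 window ends before the gene start in GENCODE M21, at 3532778. A match is a description of the letters and no match says nothing about a factor's binding elsewhere.

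The libraries were first checked against their labels. Yap1 had 947 and 962 normalized read counts in KO libraries, against 1966 and 1877 in WT libraries (-1.01 on the log2 scale, SE 0.10, n = 2 per group, adjusted p = 0.0080 in limma). Its partner Wwtr1 had 2848 and 2466 in KO libraries and 3423 and 4016 in WT libraries (adjusted p = 0.0553 in limma). The estimated number of reads on genes was 12300000 and 11800000 in KO and 15600000 and 16800000 in WT. All 11 smooth muscle markers were detected in every library, and their summed level was 157631 to 206709 in KO and 480152 to 510701 in WT, with 9 of 11 lower by the test. Markers of other cells were present and mostly higher in KO. By the test, 14 of 16 macrophage, 6 of 13 endothelial, 6 of 8 adipocyte and 2 of 8 adventitial fibroblast markers rose. So did 3 of the 4 tested of 8 neutrophil markers and 1 of the 6 tested of 10 neuronal and Schwann cell markers. Only 1 of these markers, Mertk of the macrophage list, fell. Among all tested genes 9.58% rose and 6.70% fell. Every listed endothelial, macrophage, adventitial fibroblast and adipocyte marker was detected in every library, so the RNA cannot be read as that of smooth muscle cells alone. In bulk RNA, fewer cells of a type and less RNA per cell cannot be told apart.

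Among the synthases, Nos2 (chromosome 11, 78920787 to 78960254, GRCm38), the inducible form, had 151 and 616 normalized read counts in KO libraries and 1 and 9 in WT libraries. Both KO values were above both WT values, and KO replicate 2 was 4.08 times as high as KO replicate 1. The log2 fold change was 6.10 (SE 0.96, limma adjusted p = 0.0150, n = 2 per group), on a scale of log2(normalized count + 1) that understates the change of low genes. Leaving out single libraries gave values between 4.94 and 7.26, and the call was lost without KO replicate 1 (adjusted p = 0.162), KO replicate 2 (0.225) or WT replicate 1 (0.147), settings in which limma called no gene at all.

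Markers of myeloid cells moved with Nos2. The summed level of the 16 macrophage markers was 16733 and 20837 in KO and 5341 and 7324 in WT. The summed level of the 8 neutrophil markers was 113 and 629 in KO and 6 and 9 in WT, and the defining neutrophil genes Ly6g and Mpo were at 0 in all 4 libraries. Nos2 and the neutrophil sum were both several times higher in KO replicate 2 than in KO replicate 1, and so were some macrophage markers: the ratio of the KO libraries ran from 0.896 for Mertk to 7.40 for Aif1, and was above 1.5 for 7 of the 16. Mertk, the macrophage marker that fell, made up much of the WT sum, and without it the sum was 14939 and 19230 in KO and 1452 and 4050 in WT. Ratios to marker sums, and sums without Mertk, were chosen after seeing the data. Per 1000 macrophage marker counts there were 9.02 and 29.6 Nos2 counts in KO and 0.187 and 1.23 in WT, and without Mertk 10.1 and 32 in KO and 0.689 and 2.22 in WT. Per 1000 neutrophil marker counts there were 1336 and 979 Nos2 counts in KO and 167 and 1000 in WT, and the groups overlapped. The WT ratios rest on 1 and 9 Nos2 counts over 6 and 9 marker counts, too few to compare the groups on this measure. The part of these cells in the Nos2 level was not tested.

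Nos3 (chromosome 5, 24364810 to 24384474), the endothelial synthase, had 170 and 162 normalized read counts in KO libraries and 58 and 155 in WT libraries. WT replicate 2 was close to the KO libraries and WT replicate 1 was low. The log2 fold change of 0.80 (SE 0.45) did not pass (limma adjusted p = 0.282). It was 0.10 without WT replicate 1 and 1.501 without WT replicate 2 (adjusted p = 0.874 and 0.0666), so its size rested on 1 WT library. The summed level of the 13 endothelial markers was 15013 and 13469 in KO and 5939 and 8431 in WT, also lowest in WT replicate 1. Per 1000 of these marker counts Nos3 had 11.3 and 12.03 counts in KO and 9.77 and 18.4 in WT, and the groups overlapped. An antisense gene, Gm15587, covers 25.2% of the exon length of Nos3, and without the strand setting of the counting their reads cannot be told apart.

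Nos1 (chromosome 5, 117781032 to 117958840), the neuronal synthase, was close to the limit of detection, with 7 normalized read counts in each KO library and 2 in each WT library, and was not tested. Among 10 neuronal and Schwann cell markers, the summed level was 667 and 806 in KO and 332 and 581 in WT.

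Counts per kilobase of exon allow only a rough comparison of different genes, since the length is the union of all annotated exons of a gene. On this scale, Nos2 made up 45.0% and 77.8% of the summed synthase level in KO libraries and 1.57% and 5.13% in WT libraries. Nos3 made up 54.1% and 21.9% in KO and 97.2% and 94.4% in WT. The synthase transcripts of WT libraries were thus almost all Nos3, and those of KO libraries were a mixture whose balance differed between the replicates.

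**Figure D2:**
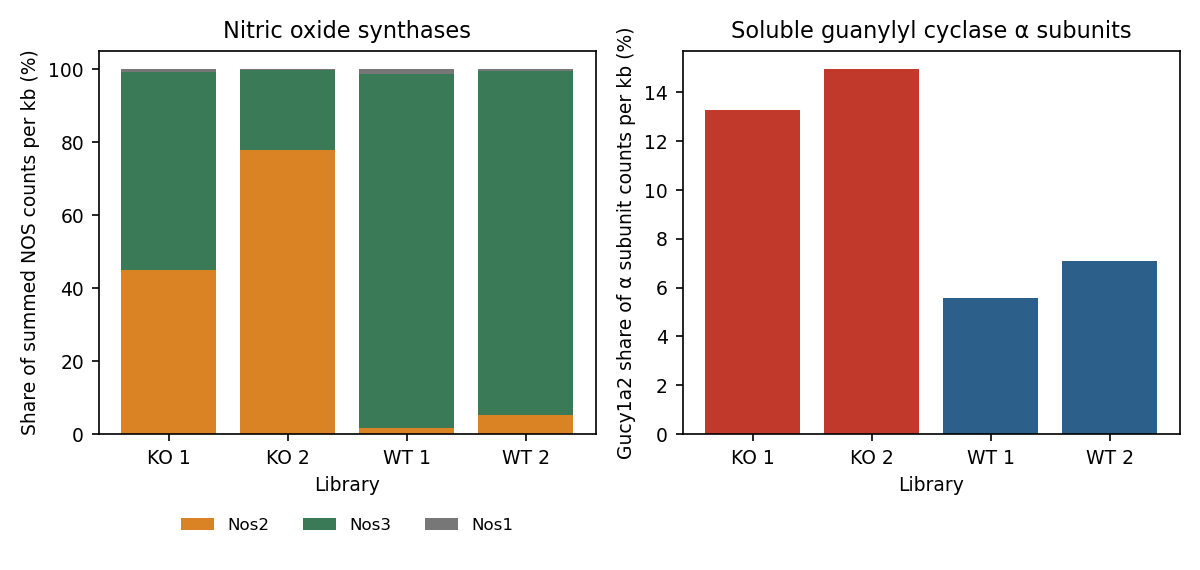
Left, share of the summed normalized counts per kilobase of exon of the nitric oxide synthase genes in each library, in percent. Right, share of Gucy1a2 in the summed counts per kilobase of both α subunit genes, in percent, with KO in red and WT in blue; it was 13.3% and 14.96% in KO and 5.58% and 7.11% in WT.

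Arg1 (chromosome 10, 24915221 to 24927484), which encodes the arginase that breaks arginine down to ornithine, had 67 and 233 normalized read counts in KO libraries and 9 and 8 in WT libraries. It was low in both WT libraries, and KO replicate 2 was again the highest. KO exceeded WT by 3.73 on the log2 scale (SE 0.63, limma adjusted p = 0.0177). Per 1000 macrophage marker counts Arg1 had 4.004 and 11.2 counts in KO and 1.69 and 1.09 in WT, but without Mertk the groups overlapped, at 4.49 and 12.1 in KO and 6.2 and 1.98 in WT. Per 1000 neutrophil marker counts it had 593 and 370 in KO and 1500 and 889 in WT. The WT ratios rest on 9 and 8 Arg1 counts over 6 and 9 marker counts, too few to read a direction. Arg1 is itself a known product of macrophages, and their part in its level was not tested.

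Gch1 (chromosome 14, 47153895 to 47189413) encodes GTP cyclohydrolase, the first enzyme of tetrahydrobiopterin synthesis. It had 21 and 30 normalized read counts in KO libraries and 15 and 14 in WT libraries, a log2 fold change of 0.75 (SE 0.48) that did not pass (limma adjusted p = 0.336). The KO values were the higher ones, at low counts.

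Gucy1a1 (chromosome 3, 82092427 to 82145789, minus strand) encodes the α1 subunit of soluble guanylyl cyclase. It had 3865 and 2991 normalized read counts in KO libraries and 10128 and 7724 in WT libraries. Both KO values were far below both WT values. The log2 fold change was -1.38 (SE 0.18, limma adjusted p = 0.0110, n = 2 per group).

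Gucy1b1 (chromosome 3, 82032006 to 82074689, minus strand) encodes the β1 subunit, the haem-bearing partner of both α subunits. It lies on the same strand as Gucy1a1, with 17737 bases between the genes. It had 2389 and 1986 normalized read counts in KO libraries and 4442 and 4159 in WT libraries. The log2 fold change was -0.98 (SE 0.12; adjusted p = 0.0103 by limma). No KO value reached a WT value.

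Gucy1a2 (chromosome 9, 3532778 to 3894736) encodes the α2 subunit, which can replace α1 in the dimer. It had 564 and 502 normalized read counts in KO libraries and 571 and 564 in WT libraries, and 1 KO value equalled the lower WT value. The log2 fold change was -0.09 (SE 0.13, limma adjusted p = 0.664). A p that misses the threshold does not show equal levels, but its estimate stayed between -0.18 and -0.01 under all 13 alternatives. With Gucy1a1 lower, Gucy1a2 made up 13.3% and 14.96% of the α subunit counts per kilobase in KO and 5.58% and 7.11% in WT. Both α subunits together had 1.05 and 1.00 times the counts per kilobase of Gucy1b1 in KO and 1.36 and 1.13 times in WT.

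Prkg1 (chromosome 19, 30564489 to 31765033, minus strand), the cGMP-dependent kinase of smooth muscle, had 1002 and 755 normalized read counts in KO libraries and 1834 and 1771 in WT libraries. The groups were apart, and the log2 fold change was -1.05 (SE 0.16, limma adjusted p = 0.0137). Pde5a (chromosome 3, 122728947 to 122859374), the cGMP phosphodiesterase that sildenafil inhibits, had 5165 and 3349 in KO libraries and 8392 and 6066 in WT libraries. Its KO values lay below its WT values, but the replicates of each group were far apart, and the log2 fold change of -0.78 (SE 0.24) did not pass (limma adjusted p = 0.0834).

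Smooth muscle markers moved with these genes: 9 of 11 fell, and the median over all 11 was -1.004 on the log2 scale. Per 1000 smooth muscle marker counts, a measure chosen after the values were seen and dominated by Acta2 and Myh11, Gucy1a1 had 18.7 and 19.0 counts in KO and 19.8 and 16.1 in WT, so that the groups overlapped. On the same measure the KO values were the higher ones for Gucy1b1, with 11.6 and 12.6 in KO and 8.70 and 8.66 in WT. They were also higher for Prkg1, with 4.85 and 4.79 in KO and 3.59 and 3.69 in WT, and for Pde5a, with 25.0 and 21.2 in KO and 16.4 and 12.6 in WT. Acta2 and Myh11 themselves changed by -2.05 and -1.55 on the log2 scale, more than the median marker. A ratio to this sum can therefore be higher in KO for a gene that fell as much as the median marker. Gucy1a1, with a log2 fold change of -1.38, fell more than that median. The log2 fold changes of Gucy1b1 and Prkg1, -0.98 and -1.05, were close to it, and Pde5a fell less (-0.78). The part of the amount of smooth muscle RNA in these falls was not tested.

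**Figure D3:**
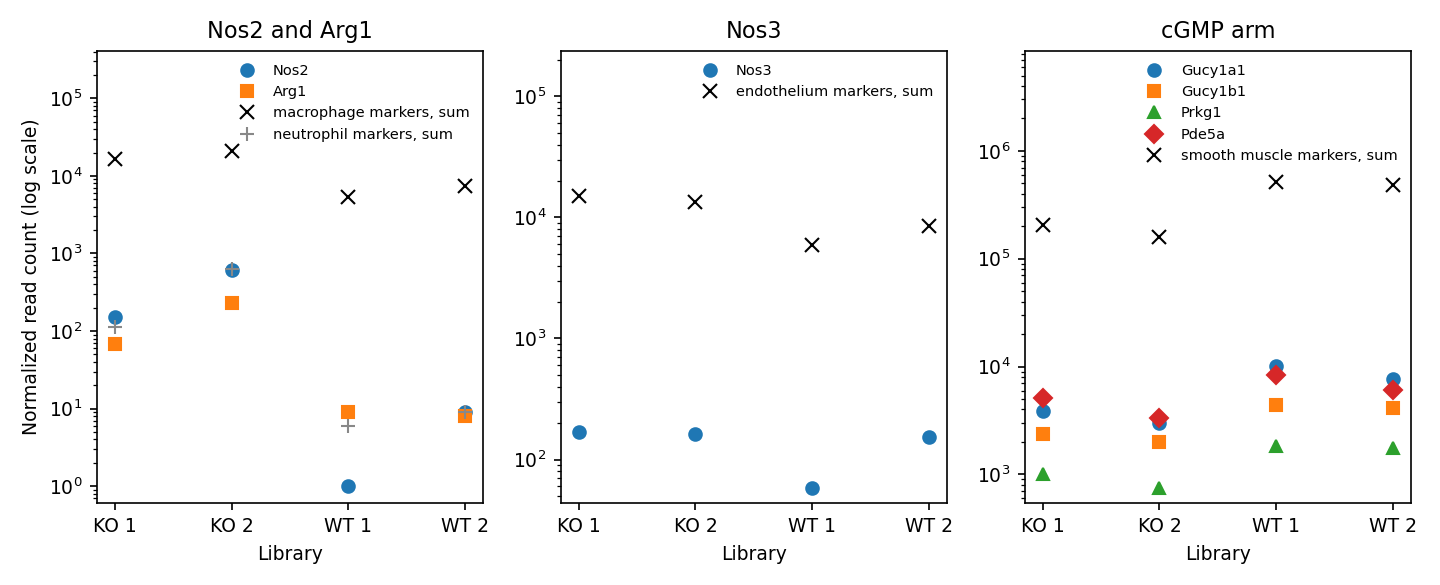
Normalized read counts of members (coloured symbols) and the summed counts of marker lists (crosses and plus signs) in each library, on log scales that differ between panels. Nos2 and Arg1 were highest in KO replicate 2, as were the macrophage and neutrophil sums. Nos3 and the endothelial sum were lowest in WT replicate 1. The cGMP genes and the smooth muscle sum were lower in both KO libraries than in both WT libraries.

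Ordered by mean level per kilobase of exon, the members in KO ran Gucy1b1 (557 normalized counts per kilobase), Gucy1a1 (492), Pde5a (433), Nos2 (86.9), Prkg1 (80.9), Gucy1a2 (80.2), Arg1 (67.3), Nos3 (40.2), Gch1 (4.08) and Nos1 (0.628). In KO the first 3 overlapped with their neighbours, as did the genes from Nos2 to Nos3. In WT the order was Gucy1a1 (1281), Gucy1b1 (1095), Pde5a (735), Prkg1 (166), Gucy1a2 (85.3), Nos3 (25.8), Arg1 (3.82), Gch1 (2.32), Nos2 (1.13) and Nos1 (0.179), and only Gucy1a1 and Gucy1b1 overlapped. Gucy1a1, Gucy1b1 and Pde5a thus stood above every synthase in both groups, and Nos2 took the fourth place in KO and the ninth in WT.

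The genes nearest to a member were found by the Euclidean distance of log2(normalized count + 1), centred on the mean of the 4 libraries, among all tested genes. For Nos2 they were Il1rn, Cd300lf and Ccl2 (distances 0.744, 0.819 and 0.846). For Nos3 they were Ccl24, Cdh12 and Qpct (0.110, 0.125 and 0.167), and for Gucy1a1 they were Perp, 4930432B10Rik and Itga7 (0.0546, 0.0824 and 0.0935). With 4 libraries many genes share such a pattern, and nothing about function follows from it.

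The other genes of the pathway were taken from a list of 79 genes grouped by role, of which 68 were tested, 18 rose and 11 fell, beside the 9.58% of all tested genes that rose and 6.70% that fell. The counts by role below are to be set against the same shares. Their median log2 fold change was 0.11, beside -0.02 over all tested genes. The list was written with earlier results of these data known.

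Of the tetrahydrobiopterin genes, 4 of 6 were tested and 0 passed (limma, 1 at an unadjusted p under 0.05). The one with the smallest p was Spr, sepiapterin reductase, the last enzyme of the synthesis, with 87 and 106 normalized read counts in KO and 169 and 163 in WT (limma adjusted p = 0.0607). Qdpr, which recycles the cofactor, had 372 and 315 in KO and 409 and 467 in WT. Gchfr, the feedback regulator of GTP cyclohydrolase, was at 1 and 0 in KO and 3 and 1 in WT.

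Of 8 genes listed for the handling of arginine and methylarginines, which include genes that use up arginine, 2 rose and 0 fell. Slc7a2, a transporter of cationic amino acids, had 4945 and 3693 normalized read counts in KO and 2158 and 1739 in WT (log2 fold change 1.141, SE 0.18, limma adjusted p = 0.0150). Ass1, which rebuilds arginine from citrulline, had 61 and 89 in KO and 18 and 15 in WT (2.10, SE 0.39, adjusted p = 0.0221). Ddah1, which degrades the methylarginine inhibitors of the synthases, had 46 and 330 in KO and 1 and 22 in WT and did not pass (adjusted p = 0.0903). Its KO libraries differed 7.17-fold, with replicate 2 the higher, as for Nos2 and Arg1. Arg2, the mitochondrial arginase, was at 16 and 15 in KO and 12 and 8 in WT.

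Of 10 partners of the synthases, 3 fell and 0 rose. Cav1, the caveolin that holds the endothelial synthase inactive and is also abundant in smooth muscle, had 4899 and 4328 normalized read counts in KO and 8657 and 8639 in WT (log2 fold change -0.91, SE 0.11, limma adjusted p = 0.0094). Nos1ap, an adaptor of the neuronal synthase, had 213 and 269 in KO and 570 and 575 in WT (-1.25, SE 0.16), and Dynll1, a dynein light chain that binds it, had 634 and 697 in KO and 1020 and 1072 in WT (-0.65, SE 0.12). Among genes that consume nitric oxide or its products, 2 of 4 tested rose: Cygb, cytoglobin, with 4412 and 3641 in KO and 994 and 2197 in WT (1.44, SE 0.35, limma adjusted p = 0.0446), and Cyb5r3, a reductase of haem proteins, with 8799 and 7417 in KO and 5746 and 5205 in WT (0.56, SE 0.13, adjusted p = 0.0347). Cygb is also a gene of fibroblasts, whose summed markers were 67147 and 57900 in KO and 19720 and 37414 in WT; their part was not tested.

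The second route to cGMP runs through natriuretic peptide receptors, which are cyclases in the cell membrane. Npr1, the receptor of atrial and brain natriuretic peptide, had 2181 and 1587 normalized read counts in KO and 5873 and 4993 in WT, a difference of -1.54 on the log2 scale (SE 0.18, adjusted p = 0.0090 in limma), beside -1.38 for Gucy1a1. Npr2, the receptor of the C-type peptide, had 943 and 796 in KO and 1214 and 961 in WT and did not pass (adjusted p = 0.231). Npr3, which clears the peptides, had 709 and 1091 in KO and 734 and 1017 in WT. Furin, a protease that matures peptide precursors, had 1682 and 1774 in KO and 1546 and 1533 in WT (adjusted p = 0.307). The peptide genes Nppa, Nppb and Nppc had at most 5 counts in any library. Of the 5 tested members of this group, 1 fell and 0 rose.

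Of the other genes listed under cGMP hydrolysis and export, 6 of 11 tested rose and 0 fell. The median over the 11 was 0.86 on the log2 scale. The list was made by gene name and role, and not every gene on it, such as Pde6d, need hydrolyse or export cGMP. Abcc4, an exporter of cyclic nucleotides, had 320 and 289 normalized read counts in KO and 94 and 103 in WT (log2 fold change 1.62, SE 0.19, limma adjusted p = 0.0090). Pde1b, a calcium-dependent phosphodiesterase, had 145 and 170 in KO and 44 and 57 in WT (1.63, SE 0.27), and Pde1a, of the same family, had 1599 and 2194 in KO and 989 and 1069 in WT (0.86, SE 0.17, adjusted p = 0.0245). Pde2a, which cGMP stimulates, had 289 and 274 in KO and 78 and 115 in WT (1.56, SE 0.24); in GENCODE M21 its identifier belongs to Gm45837, which shares 95.5% of its exon length with Pde2a. Pde3a, which cGMP inhibits, had 7877 and 6647 in KO and 9022 and 8870 in WT and did not pass (-0.31, SE 0.12, adjusted p = 0.140). Also higher by the test were 2 genes picked out once their values were known, Pde3b, which fat cells are known to express, and Pde10a. Adipocyte markers summed to 12132 and 11280 in KO and 1497 and 4243 in WT, and the part of other cells in these rises was not tested.

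Of 13 genes listed under substrates and partners of the cGMP-dependent kinase, which include the kinase gene Prkg2, 7 fell and 2 rose. Kcnmb1, the β1 subunit of the large-conductance calcium-activated potassium channel, had 1805 and 1537 normalized read counts in KO and 4364 and 4017 in WT (log2 fold change -1.33, SE 0.12, limma adjusted p = 0.0063). Its pore subunit Kcnma1 had 2653 and 2199 in KO and 3307 and 2990 in WT and did not pass (-0.38, SE 0.13, adjusted p = 0.101). Itpr1, the calcium release channel of the stores, had 8574 and 7527 in KO and 17319 and 16976 in WT (-1.09, SE 0.11). Mrvi1, the protein through which the kinase restrains that channel, had 7998 and 5347 in KO and 15615 and 11631 in WT (-1.04, SE 0.23, adjusted p = 0.0334). The kinase and both of these partners were thus each at 46.9% to 49.0% of the WT mean. Csrp1, a LIM protein of smooth muscle, had 4849 and 3164 in KO and 17023 and 13801 in WT (-1.97, SE 0.22), and Vasp, an actin regulator, had 899 and 1063 in KO and 1638 and 1455 in WT (-0.66, SE 0.13). Rgs2, which shortens signalling of contractile receptors, rose, with 528 and 604 in KO and 304 and 283 in WT (0.94, SE 0.14, adjusted p = 0.0143). The cation channel gene Trpc6, picked out likewise, also rose.

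Of 16 genes listed for the signalling that regulates Nos2 (cytokines, receptors, adaptors, transcription factors and their regulators), 13 were tested, 6 rose and 0 fell. Il1b, the cytokine interleukin-1β, had 46 and 363 normalized read counts in KO and 1 and 6 in WT (log2 fold change 5.13, SE 1.095, limma adjusted p = 0.0308), with KO replicate 2 the highest as for Nos2. Tnf was at 2 and 26 in KO and 0 and 1 in WT, below the limit for testing, and Ifng was at 0 in all 4 libraries. The receptor genes Tnfrsf1a (1651 and 1754 in KO, 921 and 1076 in WT) and Ifngr1 (1168 and 1224 in KO, 623 and 764 in WT) rose by 0.77 and 0.79 on the log2 scale (limma adjusted p = 0.0151 and 0.0186), and the adaptor gene Myd88 (339 and 305 in KO, 171 and 180 in WT) by 0.87 (adjusted p = 0.0224). These receptor genes, unlike Nos2 and Il1b, had nearly equal values in the KO replicates. The transcription factor gene Cebpb, picked out once its values were known, also rose. The macrophage and neutrophil marker sums given for Nos2 were higher in KO as well, and their part in these values was not tested.

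**Figure D4:**
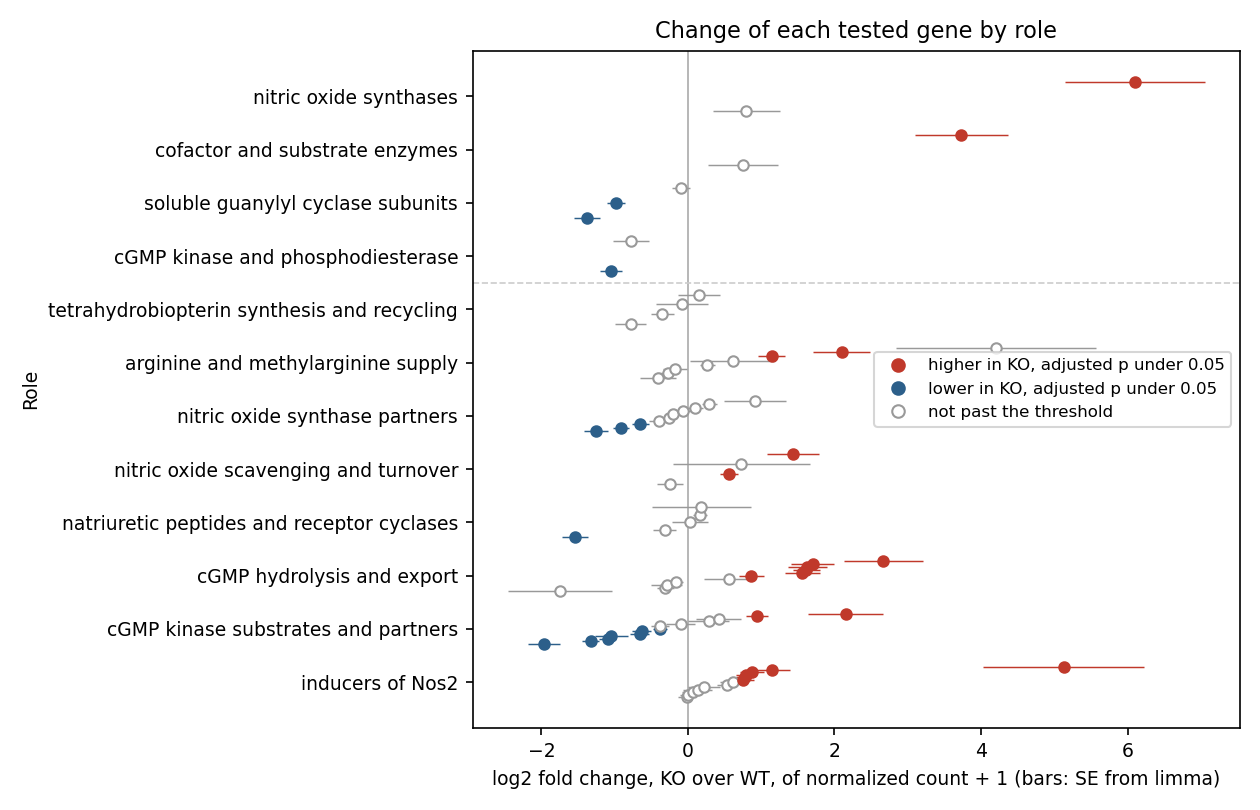
Log2 fold change of KO over WT for each tested gene, by role, with limma's SE as bars; the groups above the dashed line are the members and those below it the other pathway genes. Filled red and blue points passed the threshold as higher and lower in KO and open points did not. The soluble cyclase genes, Prkg1 and Pde5a lie left of 0, and 7 of the 11 genes listed under cGMP hydrolysis and export lie right of it.

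These calls rested on the settings of the test. Without the limit on low counts, or without the intensity trend, limma called 0 of all genes (5472 and 4274 at an unadjusted p under 0.05), the members included. Without WT replicate 2 it still called Nos2 and Gucy1a1 (adjusted p = 0.0495 and 0.0488), and without KO replicate 1, KO replicate 2 or WT replicate 1 it called no gene. The sizes kept their direction under all 13 alternatives. The log2 fold change ran from -1.57 to -1.18 for Gucy1a1, from -1.11 to -0.85 for Gucy1b1, from -1.25 to -0.85 for Prkg1, from -1.09 to -0.47 for Pde5a, from 4.94 to 7.26 for Nos2 and from 2.84 to 4.62 for Arg1.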

How the data were processed

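Per the labels' protocols, 4 stranded total RNA libraries were made after removal of ribosomal RNA. Tools named without a role in the submitters' processing notes are DESeq2 1.14.1, featureCounts 1.5.1, STAR 2.5.2b and FastQC, with build mm10/GRCm38. The authors deposited 1 table of normalized read counts rounded to whole numbers, treated here as a score and not as raw counts: the spacing of skipped and doubled whole numbers gave size factors of 0.887 and 0.890 in KO and 1.10 and 1.16 in WT. Rounding hides the reads behind WT values, so no count model was used. No source used here gives the annotation release, strand setting or filters.

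Values were tested as log2(value + 1) in limma 3.58.1 (R 4.3.3) over genes with a mean of at least 10, with an intensity trend, 2 residual and 3.96 prior degrees of freedom, two-sided p-values and Benjamini-Hochberg adjustment over all 15058 genes at a threshold of 0.05. The method was tested on simulated data. Members, lists and markers were chosen with earlier results of these data known. Named genes are the members, up to 3 genes of each role with the smallest p, and genes needed to read a member or a list. Pde3b, Pde10a, Trpc6 and Cebpb were added once their values were known. Exon lengths, positions and overlaps come from GENCODE M21. The alternatives were other pseudocounts, limits, scalings (trimmed mean of M values, TMM; same total, quantile), no trend, each library left out and a replicate block.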

Additional observations from a re-analysis of the deposited data

How the results depend on the processing

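Pseudocounts of 0.5 and 5, a mean of at least 50, TMM scaling, the same total and quantile normalization left all counts of calls within 1.5 times, and no log2 fold change of a tested member changed sign under any of the 13 alternatives. Without the limit on low counts, and likewise without the intensity trend, limma called 0 genes in either direction among all genes, the members and the other pathway genes (5472 and 4274 genes had an unadjusted p under 0.05, and the lowest adjusted p was 0.0710 and 0.0643). With 1 library left out, calls ran from 0 to 587 higher and 0 to 153 lower among all genes, 0 to 1 in each direction among the members, and 0 to 5 higher and 0 to 2 lower among the other pathway genes; the nonzero values came without WT replicate 2. The repeat numbers are not stated to pair the libraries, and the deviations of same-numbered libraries correlated at 0.118 over 15058 genes. With the replicate block, 1823 genes rose and 1213 fell, the members called were 2 higher and 4 lower, and Pde5a passed (limma adjusted p = 0.00609). The median log2 fold change of all genes was 0.06 at the same total and -0.10 after quantile normalization. Nos1, at 2 to 7 counts, is limited by depth.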
